A study of Homo sapiens with 12 samples.

Results

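The genes described here are the D and E cyclins, the kinases CDK4, CDK6 and CDK2, and the cyclin CCNG2. They were found by symbol in the deposited tables of both RCH-ACV clones. Of the 9 symbols, 8 had a row in both tables, among 15582 genes that the tables share. CCND2, which encodes cyclin D2, had no row in either table and was not analysed here.

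RCH-ACV is an established human line of B-cell precursor acute lymphoblastic leukemia (ALL) that expresses the pre-B-cell receptor (pre-BCR). RNA-seq covered 12 libraries in 4 groups of 3: dasatinib-resistant and dasatinib-sensitive cells of clone 2, and dasatinib-resistant and dasatinib-sensitive cells of clone 1. Resistant cells were cultured with rising concentrations of dasatinib, a multi-kinase inhibitor, up to 1 µM, and sensitive cells with 0.1% DMSO as vehicle. Each clone is 1 resistant subline with its sensitive control, and the 3 libraries of a group are RNA isolations at separate times. The value available for each gene is the authors' mean of normalized counts over the 6 libraries of a clone, resistant and sensitive together. A level therefore belongs to a clone and not to a condition, and it carries no SD. In bulk RNA, fewer cells with a transcript and less of it per cell cannot be told apart. How these genes differ between resistant and sensitive cells was not analysed here.

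The summed means were 24561485 in clone 2 and 19108037 in clone 1, and the depth of single libraries is unknown. The 2 tables list 16848 genes for clone 2 and 15612 genes for clone 1. The labelled cell type was checked against its markers. All 13 B-cell precursor markers were listed in both tables, with a median mean normalized count of 4898 in clone 2 and 3914 in clone 1. The lowest was MME (CD10), at 67.0 in clone 2 and 67.7 in clone 1. Divided by transcript length, 12 of the 13 lay above the median of all genes in each clone. MME did not, at percentile 20.1 in clone 2 and 16.9 in clone 1. Of 14 markers of T, myeloid, erythroid, stromal and epithelial cells, 7 were listed in clone 2 and 5 in clone 1. Their summed mean normalized count was 458 in clone 2 and 359 in clone 1, most of it from COL1A1 and NKG7. COL1A1, at 214 in clone 2 and 145 in clone 1, and NKG7, at 208 and 192, were thus each higher than MME. Divided by transcript length, NKG7 lay above the median of all genes, at percentile 59.4 in clone 2 and 61.3 in clone 1. The other listed markers with a known length, 5 in clone 2 and 3 in clone 1, did not lie above the median.

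Cyclins are the regulatory subunits of cyclin-dependent kinases (CDK). In G1, D-type cyclins bind CDK4 or CDK6 and start the phosphorylation of the retinoblastoma protein RB, which then releases E2F transcription factors. E-type cyclins, themselves E2F targets, bind CDK2 and carry the cell into S phase. CCNG2 encodes cyclin G2, an unconventional cyclin that is associated with cell cycle exit and is induced by FOXO factors. In B-cell precursors, cyclin D3 is known to be needed for the expansion of cells that express the pre-BCR.

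CCND3 carried nearly all of the measured D cyclin transcripts in both clones, and CCND1 was the lowest member. CCND3, which encodes cyclin D3, had a mean normalized count of 11046 in clone 2 and 10082 in clone 1. By this value it ranked at place 322 in the clone 2 table and 254 in the clone 1 table. CCND1, which encodes cyclin D1, had a mean normalized count of 6.07 in clone 2 and 2.88 in clone 1. The lowest mean that each table lists is 1.13 in clone 2 and 2.52 in clone 1, so CCND1 lay just above the end of the clone 1 table. By mean normalized count CCND1 stood at percentile 11.7 in clone 2 and 0.916 in clone 1.

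Because levels of different genes can be compared only per length, each mean was expressed in ppm, that is per 1000000 of its table's summed means, and divided by the length of the longest RefSeq-matched transcript in kilobases. On this scale CCND3 reached 201 ppm per kilobase in clone 2 and 236 in clone 1. CCND1 reached 0.0574 in clone 2 and 0.0350 in clone 1. CCND3 thus made up 99.97% of the sum of these D cyclins in clone 2 and 99.99% in clone 1, a sum that does not include CCND2. Since the mean is taken over 3 resistant and 3 sensitive libraries, neither condition can have averaged more than 12.1 normalized counts of CCND1 in clone 2 or 5.75 in clone 1. CCND1 shares 10.3% of its exonic bases with LTO1 on the opposite strand, listed under its older symbol ORAOV1 at a mean normalized count of 523 in clone 2 and 406 in clone 1, and the part of its reads in the CCND1 value was not tested.

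**Figure D1:**
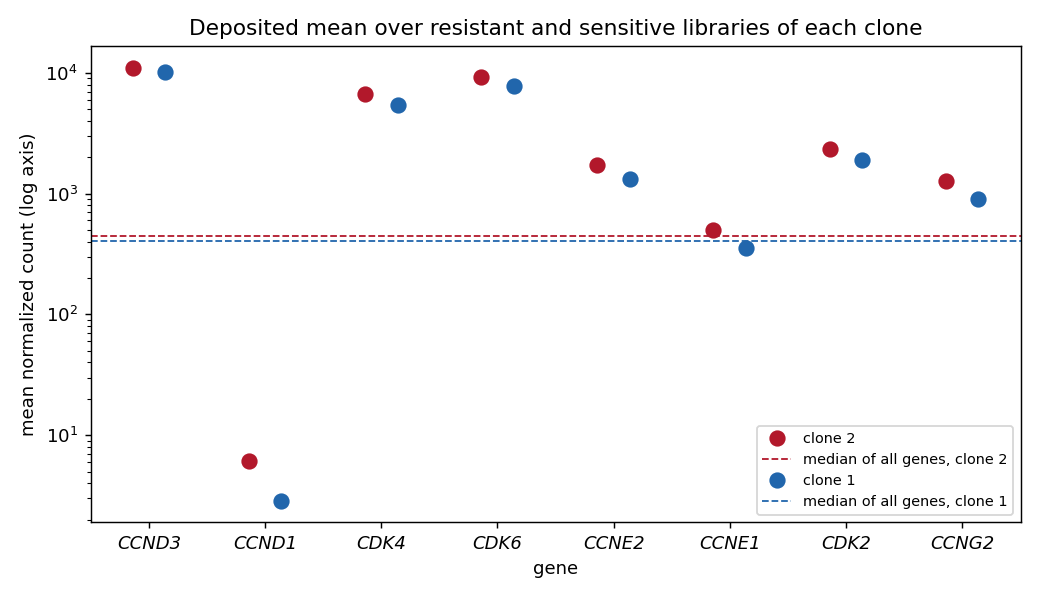
Mean normalized count (log axis) of the 8 genes in clone 2 (red, left) and clone 1 (blue, right), each point being the authors' mean over 6 libraries, with dashed lines at the median of all genes in each table. CCND3, CDK6 and CDK4 lie between 5382 and 11046, while CCND1 lies at 6.07 in clone 2 and 2.88 in clone 1.

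CDK4 and CDK6 are the catalytic partners of the D cyclins. CDK6 had a mean normalized count of 9158 in clone 2 and 7846 in clone 1. CDK4 had a mean normalized count of 6732 in clone 2 and 5382 in clone 1. CDK6 therefore gave more reads than CDK4 in each clone, but its longest transcript measures 11612 bases, against 2076 bases for CDK4.

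Which of these kinases ranked higher depended on the length used. Per kilobase of the longest transcript, CDK4 had a level of 132 ppm in clone 2 and 136 in clone 1, and CDK6 had 32.1 in clone 2 and 35.4 in clone 1. CDK6 then held 19.6% of the pair in clone 2 and 20.7% in clone 1. With coding length, which is 978 bases for CDK6 and 909 bases for CDK4, CDK6 held 55.8% of the pair in clone 2 and 57.5% in clone 1. The tables do not show which transcript ends these cells use, so the order of CDK4 and CDK6 cannot be settled from them.

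CDK4 reads carry a further limit. Pseudogenes named after CDK4, CCND3 and CCNG2 are annotated, and how reads shared with them were counted is not known. In the annotation, 43.2% of the exonic bases of CDK4 overlap exons of TSPAN31 on the opposite strand, and the strand setting of the counting is not stated in the sources. TSPAN31 was the weaker of this pair, with a mean normalized count of 341 in clone 2 and 219 in clone 1.

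The E cyclins were lower than CCND3, and CCNE2 exceeded CCNE1 in both clones. CCNE2, which encodes cyclin E2, had a mean normalized count of 1731 in clone 2 and 1317 in clone 1. CCNE1, which encodes cyclin E1, had a mean normalized count of 502 in clone 2 and 353 in clone 1. Per kilobase of transcript, CCNE2 had a level of 25.9 ppm in clone 2 and 25.3 in clone 1, whereas CCNE1 had 10.0 in clone 2 and 9.05 in clone 1. CCNE2 held 72.1% of the E cyclin sum in clone 2 and 73.7% in clone 1, and it remained the larger E cyclin with coding length. INTS8 lies on the opposite strand and overlaps 37.0% of the exonic bases of CCNE2, at a mean normalized count of 3146 in clone 2 and 2233 in clone 1. Unlike TSPAN31 beside CDK4, INTS8 had the larger count of its pair, and its part in the CCNE2 value was not tested.

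CDK2, the kinase partner of the E cyclins, had a mean normalized count of 2357 in clone 2 and 1911 in clone 1. Per kilobase of transcript its level was 41.8 ppm in clone 2 and 43.6 in clone 1. The sum of CDK4 and CDK6 was 3.93 times the level of CDK2 in each clone on this scale. With coding length it was 6.36 times in clone 2 and 6.52 times in clone 1, and with no length correction 6.74 times in clone 2 and 6.92 times in clone 1. Per kilobase of the longest transcript, the D cyclin sum, which lacks CCND2, was 5.62 times the E cyclin sum in clone 2 and 6.88 times in clone 1. This ratio was 6.87 in clone 2 and 8.38 in clone 1 with coding length. With no length correction it was 4.95 in clone 2 and 6.04 in clone 1.

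CCNG2 was expressed at an intermediate level. Its mean normalized count was 1271 in clone 2 and 901 in clone 1. Because its longest transcript measures 5526 bases, the level in ppm per kilobase was 9.37 in clone 2 and 8.53 in clone 1, close to that of CCNE1. With coding length CCNG2 was well above CCNE1, at 50.2 ppm per kilobase for CCNG2 and 16.6 for CCNE1 in clone 2, and at 45.7 for CCNG2 and 15.04 for CCNE1 in clone 1. Its relatives were higher than CCNG2 by either length. By the longest transcript CCNG1, a p53 target, had 45.2 in clone 2 and 38.7 in clone 1. CCNI had 62.9 in clone 2 and 59.4 in clone 1. By coding length CCNG1 had 126 in clone 2 and 107 in clone 1, and CCNI had 154 in clone 2 and 146 in clone 1.

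**Figure D2:**
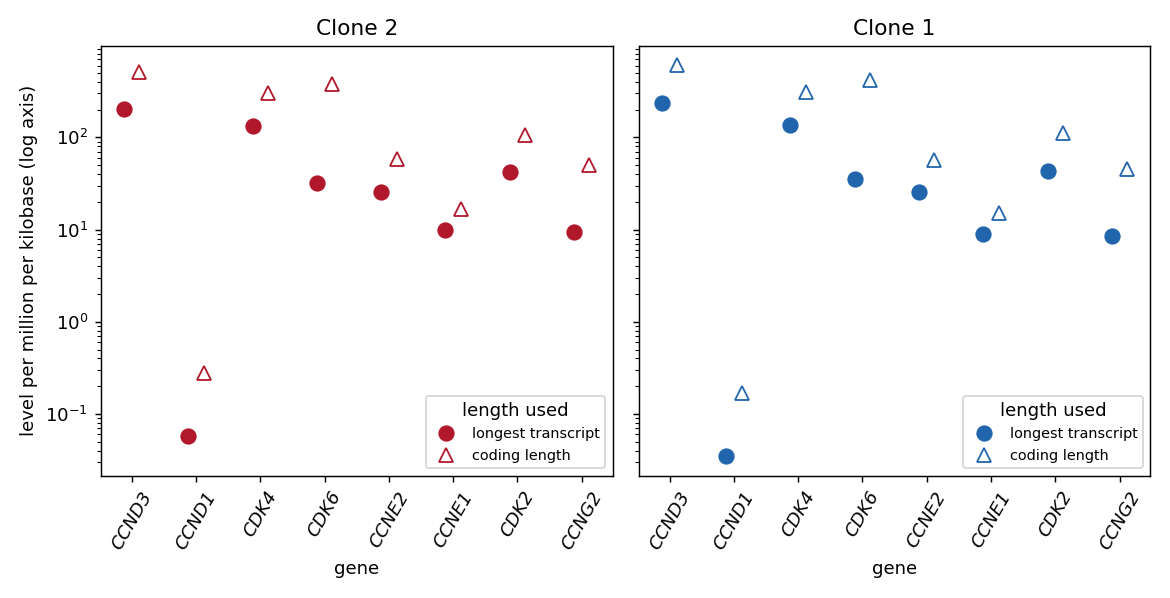
Level in ppm per kilobase (log axis) of the 8 genes in clone 2 (left panel) and clone 1 (right panel), with filled circles for the longest transcript and open triangles for coding length. CDK6 lies below CDK4 by transcript length (32.1 against 132 in clone 2) and above it by coding length, while CCND3 is highest and CCND1 lowest by either length.

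Against all genes with a transcript length, the members other than CCND1 lay above the median per kilobase of the longest transcript. By mean normalized count CCNE1 stood at percentile 52.5 in clone 2 but 46.9 in clone 1, where it lay below the median. In percentiles of the level per kilobase, CCND3 stood at 98.0 in clone 2 and 98.3 in clone 1, CDK4 at 96.9 in clone 2 and 96.9 in clone 1. CDK2 stood at 88.5 in clone 2 and 88.4 in clone 1, and CDK6 at 84.8 in clone 2 and 85.3 in clone 1. CCNE2 stood at 81.1 in clone 2 and 79.3 in clone 1, CCNE1 at 59.2 in clone 2 and 54.1 in clone 1, and CCNG2 at 57.6 in clone 2 and 52.5 in clone 1. The order of the 8 genes per kilobase was the same in both clones: CCND3, CDK4, CDK2, CDK6, CCNE2, CCNE1, CCNG2 and CCND1. With coding length the order was CCND3, CDK6, CDK4, CDK2, CCNE2, CCNG2, CCNE1 and CCND1 in both clones, so the places of CDK6 against CDK4 and CDK2, and of CCNG2 against CCNE1, depended on the length used. Without a spread over libraries it cannot be said whether neighbours in either order differ.

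The place of these genes among cyclin and CDK genes was described from symbol names, a grouping chosen after the values were seen. Symbols were taken if they were CDK plus digits, or CCN plus a letter and any digits. Family members with other forms of symbol were not ranked. Of 23 cyclin genes listed in each table, CCND3 ranked first and CCND1 last per kilobase in both clones. CCNI followed CCND3, at 62.9 ppm per kilobase in clone 2 and 59.4 in clone 1. CCNE2 took place 9, CCNE1 place 18 and CCNG2 place 19 in both clones. Of 17 CDK genes listed in each table, CDK4 ranked first per kilobase of the longest transcript, while CDK6 ranked first by mean normalized count in both clones. CDK1, the kinase of mitotic entry, followed CDK4 per kilobase at 76.4 in clone 2 and 75.6 in clone 1. CDK2 took place 3 per kilobase in both clones. CDK6 took place 5 in clone 2 and place 4 in clone 1, changing places with CDK9, a kinase of transcription elongation.

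**Figure D3:**
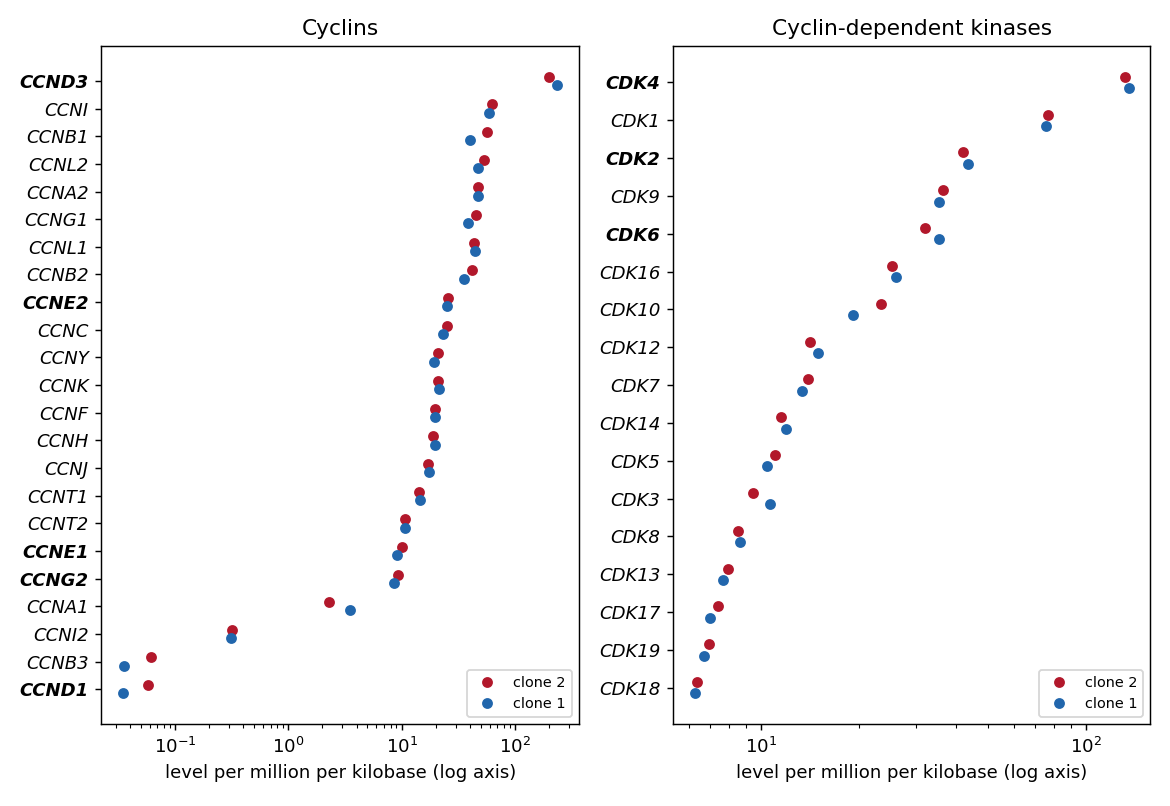
Level in ppm per kilobase of the longest transcript (log axis) for 23 cyclin genes (left) and 17 CDK genes (right). Genes were chosen by form of symbol, are listed in both tables and are sorted by clone 2 (red), with clone 1 in blue. The genes described here are in bold. CCND3 leads the cyclins at 201 in clone 2 and 236 in clone 1, CCND1 is last, and CDK4 leads the kinases by this length, at 132 in clone 2 and 136 in clone 1, but not by mean normalized count, where CDK6 leads.

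The other genes of G1 control were read from lists of 40 genes, of which 39 were listed in each table. Per kilobase, 33 of these lay above the median of all genes in clone 2 and 31 in clone 1. Their median level was 21.5 ppm per kilobase in clone 2 and 19.6 in clone 1, beside 28.99 in clone 2 and 30.3 in clone 1 for the 8 members, and 6.74 in clone 2 and 7.70 in clone 1 for all genes.

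CDK inhibitors were the list with the widest range. CDKN1A, which encodes p21Cip1, had a level of 106 ppm per kilobase in clone 2 and 80.5 in clone 1, CDKN1B (p27Kip1) had 16.0 in clone 2 and 16.4 in clone 1, and CDKN2D (p19Ink4d) had 13.5 in clone 2 and 13.4 in clone 1. The lowest was CDKN2C (p18Ink4c), at 0.630 in clone 2 and 0.283 in clone 1, and CDKN2B (p15Ink4b) had no row in either table. The inhibitors of the INK4 class, which bind CDK4 and CDK6, thus included members at low levels, with CDKN2D the highest of those listed.

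Substrates of these kinases and the factors they release were also listed. RB1 had a level of 48.8 ppm per kilobase in clone 2 and 46.9 in clone 1, RBL2 (p130) had 20.9 in clone 2 and 16.9 in clone 1, and RBL1 (p107) had 6.34 in clone 2 and 6.89 in clone 1. All 10 E2F and DP genes were listed. TFDP1, the partner of E2F factors, had 84.4 in clone 2 and 88.7 in clone 1, E2F4 had 80.5 in clone 2 and 74.1 in clone 1, and E2F2 had 32.2 in clone 2 and 34.8 in clone 1. E2F5 had the lowest mean normalized count of that list, at 709 in clone 2 and 567 in clone 1. Per kilobase E2F5 had 15.3 in clone 2 and 15.7 in clone 1. The lowest per kilobase was TFDP2, at 4.70 in clone 2 and 4.79 in clone 1, named for that after its values were seen.

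Among the cyclins of later phases, CCNA2 had a level of 46.7 ppm per kilobase in clone 2 and 47.1 in clone 1, and CCNB1 had 57.1 in clone 2 and 40.0 in clone 1. CCNA1 was the lowest of that list, at 2.30 in clone 2 and 3.53 in clone 1. Of the regulators of CDK phosphorylation, the phosphatase gene CDC25A had 21.5 in clone 2 and 23.7 in clone 1, the inhibitory kinase gene WEE1 had 21.5 in clone 2 and 21.0 in clone 1, and CCNH, the cyclin of the CDK-activating kinase, had 19.1 in clone 2 and 19.6 in clone 1. MNAT1, the assembly factor of that kinase, was lowest, at 6.999 in clone 2 and 6.52 in clone 1.

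Of the ubiquitin ligase genes that control cyclin and inhibitor turnover, CKS1B, a cofactor of SKP2, had the highest level per kilobase, at 96.7 ppm in clone 2 and 107 in clone 1, and was named for that after its values were seen. CUL1 had a level of 41.8 ppm per kilobase in clone 2 and 43.5 in clone 1, SKP2 had 30.1 in clone 2 and 33.3 in clone 1, SKP1 had 28.7 in clone 2 and 27.5 in clone 1, and FBXW7 had 24.2 in clone 2 and 15.6 in clone 1. FBXW7 recognises cyclin E, SKP2 recognises p27Kip1, and AMBRA1, which recognises D cyclins, was lowest at 9.37 in clone 2 and 9.50 in clone 1. Of the FOXO genes, FOXO1 was at 9.93 in clone 2 and 9.93 in clone 1 and FOXO3 was at 7.46 in clone 2 and 7.63 in clone 1.

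For each of the G1 cyclins and kinases other than CCND1, the level in clone 2 was within 1.5-fold of its own level in clone 1. Each clone gives 1 pooled value, and the tables were normalized separately. Library names carry the letter A for clone 1 and B for clone 2, and the meaning of the letter is not stated. What the letter marks cannot be told apart from the clone, so the ratios are a description. Clone 2 over clone 1, in ppm, the log2 ratio was -0.23 for CCND3, -0.14 for CDK6, -0.06 for CDK2 and -0.04 for CDK4. It was 0.03 for CCNE2, 0.13 for CCNG2 and 0.14 for CCNE1. The median over all 15582 shared genes was 0.00, with quartiles of -0.10 and 0.11. CCND3 and CDK6 were outside the lower quartile, and CCNE1 and CCNG2 outside the upper one. By definition, as many of all genes lie outside the quartiles as between them, so these places do not set the members apart. With the deposited means as they stand, which sum to more in clone 2, all 8 ratios were above 0, so the direction for CCND3, CDK6, CDK4 and CDK2 depends on the scaling.

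Of the 8 members, 1 was beyond 1.5-fold between the clones, CCND1, beside 8.43% of all shared genes. Its level was 0.247 ppm in clone 2 and 0.151 in clone 1, a 1.64-fold higher value in clone 2, at a table-wide share of 4.09% of genes beyond that fold upward and 4.34% downward. At such counts large ratios were common. Among genes with a mean normalized count under 10 in clone 1, 35.4% were beyond 1.5-fold, against 2.72% of genes with at least 50 in both tables. The 7 members with at least 50 were all within 1.5-fold.

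Among the other G1 genes, 5 of 39 were beyond 1.5-fold, beside 8.43% of all shared genes. FBXW7 was higher in clone 2 by 1.56-fold, CDKN1C by 1.92-fold, CDKN2C by 2.23-fold and CDKN2A by 6.43-fold, and CCNA1 was lower, at 0.651 times its level in clone 1. CDKN1C and CDKN2A were named because they passed this fold. Of the 5, only FBXW7 and CCNA1 had a mean normalized count of at least 50 in both tables, and CDKN1C had 72.6 in clone 2 and 29.4 in clone 1. CDKN2A, which encodes p16INK4a and p14ARF, had a mean normalized count of 95.3 in clone 2 and 11.5 in clone 1, and CDKN2C had 32.3 in clone 2 and 11.3 in clone 1. Of the 39 genes, these 2 INK4 genes had the largest ratios, both at under 50 normalized counts in clone 1, whereas CDKN2D of the same class lay within 1.5-fold.

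**Figure D4:**
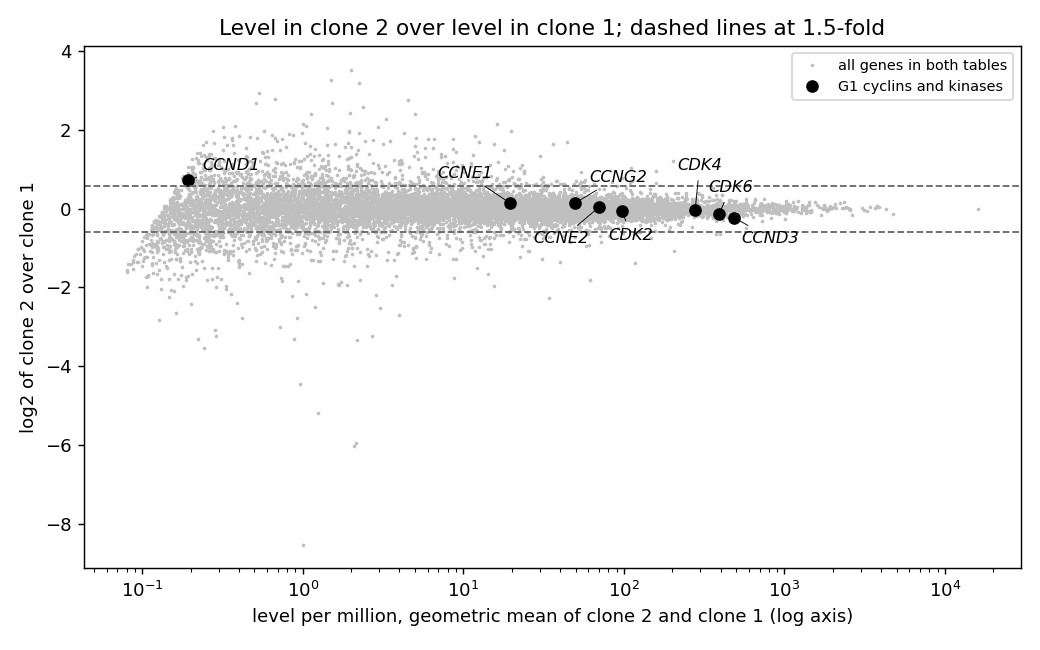
Log2 of the level in clone 2 over that in clone 1 (y axis) against the geometric mean of both levels in ppm (x axis, log), for all 15582 shared genes (grey) and the 8 genes described here (black), with dashed lines at 1.5-fold. CCND1 lies above the upper line at the weak end of the data, and the other 7 lie between -0.23 and 0.14.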

How the data were processed

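RNA of dasatinib-resistant and dasatinib-sensitive RCH-ACV cells was sequenced from stranded mRNA libraries. The processing notes of the submitters list hg19 and DESeq2, with BWA and several read utilities, and assign them no step. Annotation and strand handling of the counting are not stated in the sources. The authors deposited for each gene a signal, the average of size-factor-scaled counts across all 6 libraries of 1 clone, as DESeq2 defines the mean column of its output. The other columns hold the authors' comparison of resistant with sensitive cells (fold changes, standard errors, test statistics, p-values and directions) and were not used. No value was therefore assigned to a condition or a library, and no test was run.

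Each mean was expressed in ppm (per 1000000 of its table's summed means). Per-kilobase levels were obtained from the longest RefSeq-matched transcript in GENCODE 29, with coding length as the alternative. This annotation is on GRCh38, so no coordinates are given. A length was found for 84.4% of the symbols in the clone 2 table and 85.5% in the clone 1 table. Rows that shared a symbol (2 per table) were left out, and symbols stored as dates (22 in the clone 2 table and 21 in the clone 1 table) were kept as they stood. Clone 2 was divided by clone 1 gene by gene, and ratios beyond 1.5-fold were counted. Python 3.11.15 and pandas 2.3.3 were used. All 9 members were named, and up to 3 genes with the highest level and the lowest gene of each other list, by level in ppm. The members and lists were chosen with earlier results of these data known.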

Additional observations from a re-analysis of the deposited data

How the results depend on the processing

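No paired analysis was possible because the values are means over all libraries of a clone and no test was run. For the same reason no library could be left out in turn. CCND3 held 99.95% of the D cyclin sum in clone 2 with coding length and 99.95% with no length correction. With coding length and with no correction, CCNE2 held 77.8% and 77.5% of the E cyclin sum in clone 2, and 79.1% and 78.8% in clone 1. CDK6 held 55.8% and 57.6% of the pair with CDK4 in clone 2, and 57.5% and 59.3% in clone 1, so that CDK6 led on these scales and CDK4 per kilobase of transcript. The cause lies in the length of the CDK6 transcript used.

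Ranked by mean normalized count, 3 members (CCND3, CDK6 and CDK4) were above percentile 90 in each clone, and 2 per kilobase, where CDK6 was below it. In ppm no member was beyond a fold of 2 between clones (0 of 8), and 0 of those with at least 50 in both tables were beyond 1.5-fold. With no rescaling CCND1 was beyond a fold of 2, at a log2 ratio of 1.08. Of all shared genes, 15.3% were beyond 1.5-fold with no rescaling, 3.05% beyond a fold of 2, and 2.72% with at least 50 in both tables. With the median log2 ratio set to 0, 4 members were lower and 4 higher in clone 2, as in ppm. The pooled means limit every statement to a clone.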
